A study of Mus musculus with 12 samples.

Results

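The genes of the nuclear lamina, of inner nuclear membrane proteins and of HMGB chromatin proteins, 10 in all, were followed in RNA-seq data of mouse adult fibroblasts (MAFs). They were taken by name, as the rows of the counts tables for 3 lamin genes (Lmnb1, Lmnb2 and Lmna), 5 inner nuclear membrane genes (Lbr, Tmpo, Sun1, Sun2 and Emd) and 2 HMGB genes (Hmgb1 and Hmgb2). All 10 were found among the 49315 genes of the tables, and all 10 passed the filter on low counts that left 17416 genes for testing. MAFs are primary cells, here grown from ear tissue of female adult C57BL6/J mice (WT) and of Bmal1-/- mice (KO), a knockout of the clock transcription factor BMAL1. Control cells were sham irradiated (0 Gy), and senescent cells had received 20 Gy of X-rays, a dose that damages DNA and ends division. Per the study's methods, irradiated cells were then kept in culture for weeks, not hours, before use. All 4 groups were treated with 100 nM dexamethasone, a glucocorticoid that sets the clocks of cultured cells to a common phase, and were collected 12 h later. There were 3 libraries of each state (control or senescent) and genotype. The labels do not say whether replicates were separate cultures or animals, so p-values measure the spread between these libraries.

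Lamins are intermediate filament proteins that form a meshwork under the inner nuclear membrane. The B-type lamins (Lmnb1, Lmnb2) stay bound to the membrane, whereas the A-type lamins (Lmna) are also found in the nuclear interior and stiffen the nucleus. LBR, LAP2 proteins (Tmpo) and emerin (Emd) tether chromatin to the lamina, and SUN proteins join the lamina to nesprins and so to the cytoskeleton. HMGB1 and HMGB2 bend DNA in chromatin, and HMGB1 leaves the nucleus of senescent cells and acts as an alarm signal outside. Loss of lamin B1 is widely used as a mark of senescence, and HMGB2 is known to decline as fibroblasts stop dividing.

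The genes lie on 8 chromosomes of the GRCm38 build. Lmnb1 (ENSMUSG00000024590) spans chr18:56707813-56753424 on the plus strand, Lmnb2 (ENSMUSG00000062075) chr10:80901203-80918245 on the minus strand and Lmna (ENSMUSG00000028063) chr3:88480147-88509956 on the minus strand. Lbr (ENSMUSG00000004880, chr1:181815335-181843046), Tmpo (ENSMUSG00000019961, chr10:91147571-91181315) and Sun2 (ENSMUSG00000042524, chr15:79724070-79742536) are on the minus strand, and Sun1 (ENSMUSG00000036817, chr5:139200637-139249840) and Emd (ENSMUSG00000001964, chrX:74254687-74261548) on the plus strand. Hmgb1 (ENSMUSG00000066551) spans chr5:149046702-149184489 on the minus strand and Hmgb2 (ENSMUSG00000054717) chr8:57511907-57515999 on the plus strand. Counts were summed over all exons of a gene, so lamin A and lamin C, or the LAP2 forms of Tmpo, were not separated. Of all 50-base stretches in the annotated transcripts of Hmgb1, 22.7% also occur in other, non-overlapping genes, against 18.7% for Hmgb2, 10.3% for Emd and at most 0.379% for the other 7 genes. Reads that lie wholly in such stretches map to more than 1 place and were not counted. The counts of Hmgb1, Hmgb2 and Emd, and ratios of them, may therefore miss reads. These shares do not give the size of the loss, because reads were longer than 50 bases. Exons of Lbr, Tmpo, Sun1, Sun2, Emd and Hmgb1 overlap those of another annotated gene, and the use of strand in counting is not given in the sources used here.

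Total counts were 23923030 to 31736083 per library, and the 10 genes had from 297 to 32373 counts in a library, far above the floor of 3 counts. Levels are given in CPM, counts per 1e+06 in the library, after scaling of totals by TMM (the trimmed mean of M-values) with factors of 0.926 to 0.967 for control libraries and 1.04 to 1.07 for senescent ones. Arntl, the gene of BMAL1, was at 29.8, 31.6 and 33.2 CPM in WT control, at 37.4, 35.8 and 35.2 CPM in WT senescent, at 15.2, 11.8 and 12.5 CPM in KO control and at 27, 25.3 and 27.5 CPM in KO senescent cells, with no KO library as high as any WT library. RNA of the gene thus remained in KO cells, and it rose there with senescence (log2 fold change 1.02, SE 0.09, adjusted p = 1.96e-09), so that the KO level was lower than WT by 1.26 on the log2 scale in control cells but by 0.44 in senescent cells. Whole-gene counts do not show whether these reads include the part removed in the KO. The 12 fibroblast markers summed to 22800 to 30200 CPM in control and 10800 to 13100 CPM in senescent libraries; in WT senescence 6 of them rose and 6 fell, with Col1a1 at 7210 to 7460 CPM in control and 1730 to 1790 CPM in senescent libraries, and Fap was at 0.813 CPM or less in every control library. Markers of keratinocytes, macrophages, endothelium, melanocytes and adipocytes summed to at most 19.2 CPM per list. Skeletal muscle markers summed to 14.2 to 58.6 CPM, nearly all of it from Acta1, while Myod1 was at 0.142 CPM or less. Markers of chondrocytes, the cells of ear cartilage, summed to 4790 to 9160 CPM in control and 612 to 2250 CPM in senescent libraries, and no library was at 0 for Acan or Col2a1. In bulk RNA, fewer cells of a type and less RNA per cell cannot be told apart.

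The 250 bases before the RefSeq transcription starts are shown for 4 members that fell and for Sun2, which moved least in WT cells, so that their promoter letters can be compared. Known elements of cell cycle promoters were searched on both strands, the CCAAT box (CCAAT, the letters bound by NF-Y) and the CHR (TTTGAA, the cell cycle genes homology region), together with an E2F site (TTTCCCGC or TTTGGCGC), the E-box bound by BMAL1 (CACGTG) and the AP-1 site (TGACTCA). Capitals mark matches to these letters on either strand. Sequences are from RefSeq (GRCm38.p6), 5′ to 3′ on the strand of the gene.
Hmgb2, chr8:57511593-57511842, plus strand: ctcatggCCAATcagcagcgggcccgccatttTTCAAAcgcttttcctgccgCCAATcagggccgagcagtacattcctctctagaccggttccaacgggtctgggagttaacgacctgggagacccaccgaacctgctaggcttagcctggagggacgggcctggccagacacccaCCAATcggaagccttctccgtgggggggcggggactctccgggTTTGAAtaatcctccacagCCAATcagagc
Lbr, chr1:181842402-181842651, minus strand: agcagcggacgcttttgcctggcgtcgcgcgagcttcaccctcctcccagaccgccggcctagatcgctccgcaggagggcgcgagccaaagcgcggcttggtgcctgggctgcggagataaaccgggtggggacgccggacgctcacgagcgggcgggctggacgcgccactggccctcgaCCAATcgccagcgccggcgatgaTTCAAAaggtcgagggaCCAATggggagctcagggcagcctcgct
Tmpo, outer start, chr10:91171620-91171869, minus strand: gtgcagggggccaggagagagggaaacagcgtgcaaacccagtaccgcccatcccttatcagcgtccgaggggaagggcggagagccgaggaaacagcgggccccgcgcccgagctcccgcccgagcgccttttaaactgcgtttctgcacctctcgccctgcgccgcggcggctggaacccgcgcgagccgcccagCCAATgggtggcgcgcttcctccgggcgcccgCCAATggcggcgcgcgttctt
Tmpo, inner start, chr10:91170551-91170800, minus strand: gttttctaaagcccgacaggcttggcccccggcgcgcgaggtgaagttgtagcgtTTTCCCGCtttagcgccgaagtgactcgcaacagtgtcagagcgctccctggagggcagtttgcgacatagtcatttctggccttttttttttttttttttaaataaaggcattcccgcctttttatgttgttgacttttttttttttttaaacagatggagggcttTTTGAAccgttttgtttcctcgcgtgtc
Hmgb1, outer start, chr5:149053058-149053307, minus strand: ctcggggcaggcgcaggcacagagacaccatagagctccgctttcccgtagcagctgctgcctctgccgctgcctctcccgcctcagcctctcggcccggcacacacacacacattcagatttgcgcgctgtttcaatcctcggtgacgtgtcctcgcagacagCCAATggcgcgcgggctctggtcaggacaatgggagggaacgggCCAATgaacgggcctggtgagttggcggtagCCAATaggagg
Sun2, chr15:79742537-79742786, minus strand: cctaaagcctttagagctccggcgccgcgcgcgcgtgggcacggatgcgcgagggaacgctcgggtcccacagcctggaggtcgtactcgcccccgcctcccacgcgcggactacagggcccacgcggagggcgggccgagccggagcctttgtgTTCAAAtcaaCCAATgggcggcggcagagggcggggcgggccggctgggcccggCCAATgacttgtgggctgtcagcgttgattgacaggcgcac

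The Hmgb2 stretch holds 4 CCAAT boxes and 2 CHR matches, with the closest of each 11 and 30 bases before the start. Lbr has CCAAT boxes at 68 and 28 bases before its start and a CHR match at 45 between them. The outer Tmpo start has CCAAT boxes at 53 and 21 bases, and the inner start has a CHR match at 28 and an E2F match at 195. Sun2, whose level hardly moved in WT cells, has CCAAT boxes at 85 and 41 bases and a CHR match at 95, the same elements as Lbr. Counted over the whole windows of 300 bases, from 250 before to 50 after a start, the CCAAT box was in 9 of 14 windows of members (8 of the 9 members that had one) and the CHR in 4 of 14 windows (4 members), and Lmnb2 had neither. Of all 32851 windows, 37.4% hold the first and 17.9% the second. The E-box was found in 1 of 14 windows (Hmgb1, 69 bases before its inner start), against 7.15% of all windows. The AP-1 site was in 1 (Lmna, 40 bases after a start inside the gene), against 5.2%. Both Lmna windows, chr3:88493263-88493562 and chr3:88503303-88503602, lie inside the annotated gene, and none covered its outer end. The first E2F form was found for Tmpo alone, against 1.07%. These matches describe letters, not binding.

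The first question was how the nuclear envelope and HMGB genes changed when WT cells became senescent. Every member had a lower mean in senescent than in control cells. By edgeR's quasi-likelihood test with Benjamini-Hochberg adjustment over all 17416 genes, 9 of 10 members fell (adjusted p under 0.05), against 27% of all genes tested that fell. Of these, 6 members, Lmnb1, Lmnb2, Lbr, Tmpo, Hmgb1 and Hmgb2, also fell by more than 2-fold and were differentially expressed genes (DEGs) by the thresholds of the study, against 5.9% of all genes tested. The second question was whether KO cells showed the same changes. In KO cells all 10 members fell, against 28.6% of all genes, and the same 6 were DEGs, against 7.58%. On the log2 scale the 10 genes had a median change of −1.27 (WT) and −1.31 (KO), where that of all tested genes was 0.02 and 0. In 8 of 10 members (not Lmna and Sun2) all 6 senescent libraries were below all 6 control libraries, against 19.5% of all genes.

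**Figure D1:**
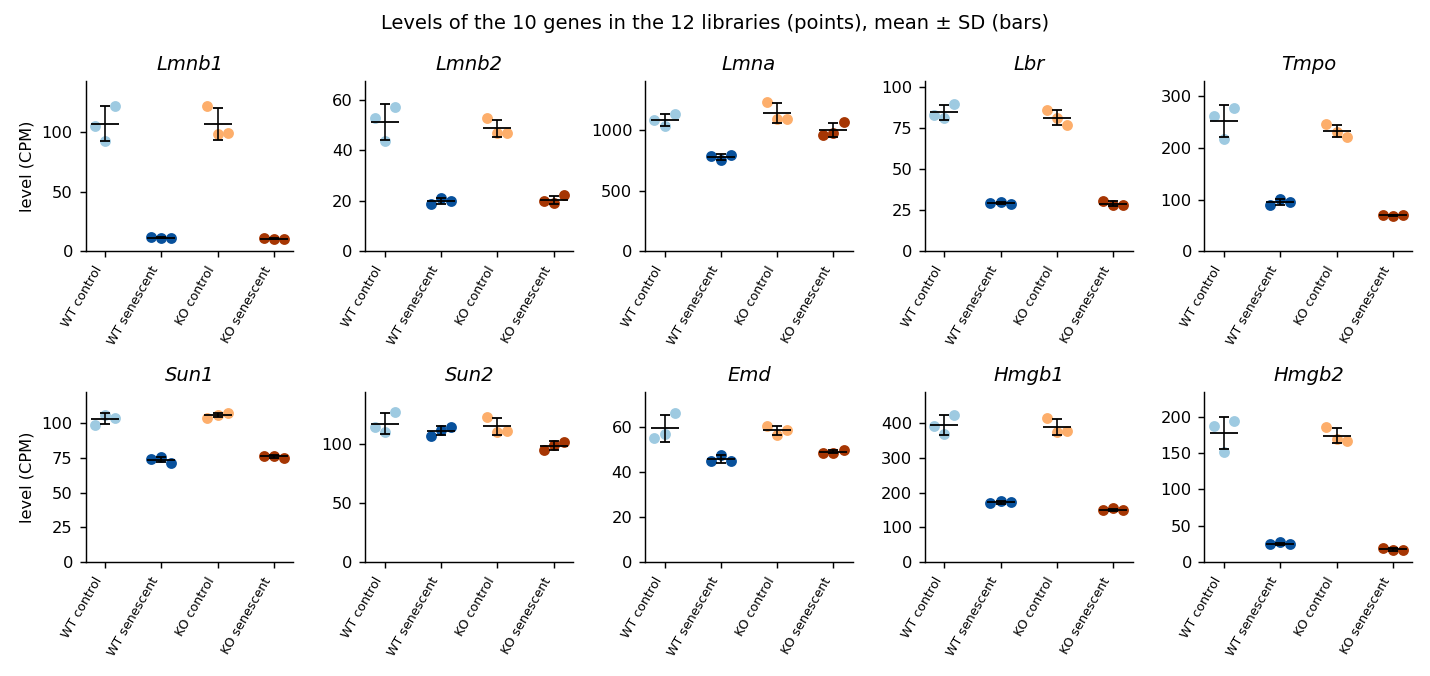
Level of each of the 10 genes in CPM (vertical axes, linear, from 0) in the 12 libraries, by group; points are libraries, and bars are the mean ± SD of 3 libraries. Lmnb1 and Hmgb2 fell from about 107 and 178 CPM in WT control cells to 11.6 and 25.5 CPM in WT senescent cells, whereas Sun2 stayed between 94.4 and 127 CPM in all libraries.

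Lmnb1, the main B-type lamin of dividing cells, was at 105, 93 and 122 CPM in WT control replicates 1 to 3, at 11.8, 11.4 and 11.7 CPM in WT senescent, at 122, 98.4 and 99 CPM in KO control and at 11.5, 10.6 and 10.3 CPM in KO senescent cells. The senescent libraries of both genotypes lay close together and far below every control library. The level was 9.18-fold lower with senescence in WT cells (−3.20 on the log2 scale, SE 0.11, adjusted p = 6.99e-13) and 9.88-fold lower in KO senescent cells (−3.30, SE 0.11, adjusted p = 4.69e-13). Ranked from the most negative log2 fold change, Lmnb1 stood at place 40 of 17416 genes in WT and at place 140 in KO cells.

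Lmnb2, the other B-type lamin, was at 52.6, 43.5 and 57.2 CPM in WT control, at 18.7, 21.3 and 20 CPM in WT senescent, at 52.6, 46.6 and 46.9 CPM in KO control and at 19.8, 19.1 and 22.2 CPM in KO senescent cells. Its groups were as clearly apart, but its change was smaller than that of Lmnb1, at −1.35 in WT (SE 0.09, adjusted p = 1.32e-10) and −1.26 in KO cells (SE 0.09, adjusted p = 3.56e-10) on the log2 scale. Lmna, the A-type lamin gene, was at 1080, 1030 and 1130 CPM in WT control, at 786, 753 and 799 CPM in WT senescent, at 1230, 1090 and 1090 CPM in KO control and at 957, 977 and 1070 CPM in KO senescent cells. Its WT senescent libraries were the lowest, and its KO senescent libraries overlapped the range of WT control cells. On the log2 scale, Lmna fell by 0.47 in WT cells (SE 0.06, adjusted p = 4.73e-07) and, in KO cells, by 0.19 (SE 0.06, adjusted p = 0.0082). The fall in KO cells was lost without KO control replicate 1 (adjusted p = 0.0507) or KO senescent replicate 1 (adjusted p = 0.052), and without TMM scaling (−0.03, adjusted p = 0.617).

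The lamins differed in how far they fell, and their proportions shifted. Per kilobase of exon, which allows genes to be compared, Lmna stood at 185 CPM per kb in WT control cells, Lmnb1 at 36 and Lmnb2 at 11.9. In WT senescent cells these levels were 133, 3.92 and 4.67 CPM per kb, and in KO senescent cells 171, 3.64 and 4.75. Lmnb1 thus made up 15.4% ± 1.14 (SD, n = 3) of the summed lamin level in WT control cells and 2.76% ± 0.0482 in WT senescent cells, and 14.8% ± 0.682 and 2.03% ± 0.217 in KO control and senescent cells. The ratio of Lmna to both B-type lamins together was 3.54 to 4.25 in the 6 control libraries, 14.6 to 16.1 in WT senescent and 19.3 to 21.2 in KO senescent libraries. The ratio of Lmnb2 to Lmnb1 was 0.297 to 0.347 in the 6 control libraries and 1.1 to 1.49 in the 6 senescent ones, so Lmnb2 passed Lmnb1 in every senescent library. No p is given for these ratios, because they combine genes chosen with results known.

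**Figure D2:**
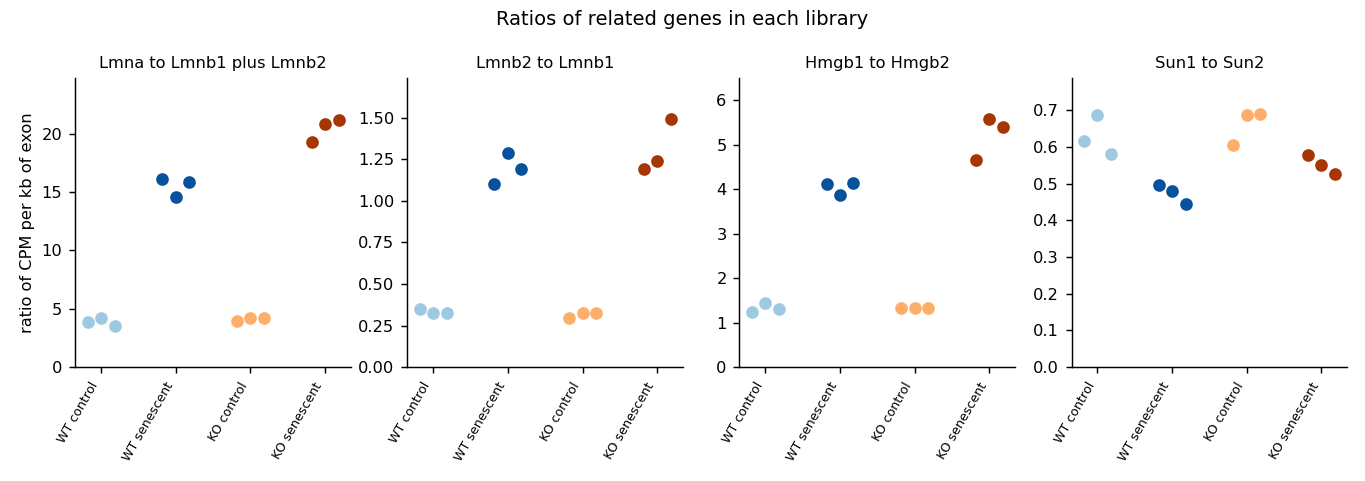
Ratios of related genes in each of the 12 libraries (points), from levels in CPM per kb of exon, on linear axes from 0. The ratio of Lmna to Lmnb1 plus Lmnb2 was at most 4.25 in any control library and at least 14.6 in any senescent one, and the ratio of Hmgb1 to Hmgb2 was 1.25 to 1.44 in control and 3.87 to 5.58 in senescent libraries, with KO senescent libraries highest in both.

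Of the inner membrane genes, Lbr and Tmpo fell furthest. Lbr, the lamin B receptor, was at 83.4, 81 and 89.6 CPM in WT control, at 29.4, 30 and 28.9 CPM in WT senescent, at 86, 81.6 and 77.2 CPM in KO control and at 30.8, 28.5 and 28.4 CPM in KO senescent cells. Control and senescent libraries did not overlap, whereas the genotypes overlapped in both states. On the log2 scale it changed by −1.52 in WT (SE 0.06, adjusted p = 1.44e-14) and −1.48 in KO cells (SE 0.06, adjusted p = 1.8e-14). Tmpo, which encodes the LAP2 proteins, was at 263, 218 and 277 CPM in WT control, at 89.6, 101 and 96.1 CPM in WT senescent, at 246, 231 and 222 CPM in KO control and at 71.3, 69.2 and 70.2 CPM in KO senescent cells. The KO senescent libraries were lowest and did not overlap the WT senescent ones. The change was −1.40 in WT (SE 0.07, adjusted p = 3.22e-12) and −1.73 in KO cells (SE 0.07, adjusted p = 1.49e-13).

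Emd, which encodes emerin, was at 55.2, 57 and 66.4 CPM in WT control, at 44.8, 47.7 and 44.8 CPM in WT senescent, at 60.6, 56.5 and 58.6 CPM in KO control and at 48.6, 48.5 and 49.7 CPM in KO senescent cells. It fell modestly, by 0.38 in WT (SE 0.07, adjusted p = 4.29e-05) and, in KO cells, by 0.26 (SE 0.06, adjusted p = 0.00189) on the log2 scale, and without TMM scaling the fall in KO cells was lost (−0.10, adjusted p = 0.14).

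Sun1 and Sun2, the genes of the SUN proteins, are given side by side. Sun1 was at 98.4, 106 and 104 CPM in WT control, at 74.4, 75.5 and 71.4 CPM in WT senescent, at 104, 106 and 107 CPM in KO control and at 76.5, 76.4 and 75.2 CPM in KO senescent cells. Sun2 was at 114, 110 and 127 CPM in WT control, at 107, 112 and 114 CPM in WT senescent, at 123, 110 and 111 CPM in KO control and at 94.4, 98.9 and 102 CPM in KO senescent cells. Sun1 fell by 0.48 on the log2 scale in both genotypes (SE 0.05 in each, adjusted p = 3.65e-08 in WT and 3.62e-08 in KO cells), with no overlap of control and senescent libraries. For Sun2 the WT groups overlapped and the change was −0.08 (95% interval −0.20 to 0.05, adjusted p = 0.294), a value that turned to 0.09 without TMM scaling. In KO cells Sun2 fell by 0.22 (SE 0.06, adjusted p = 0.00406), a fall that was also lost without TMM scaling (−0.06, adjusted p = 0.338). The ratio of Sun1 to Sun2 per kb was 0.581 to 0.69 in control and 0.445 to 0.578 in senescent libraries.

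Hmgb1 had the highest level of the 10 genes per kilobase of exon after Lmna, at 78.6 CPM per kb in WT control cells. In CPM it was at 392, 368 and 424 CPM in WT control, at 169, 176 and 172 CPM in WT senescent, at 414, 374 and 376 CPM in KO control and at 150, 155 and 149 CPM in KO senescent cells. Every senescent library was below every control library, and the KO senescent libraries were below the WT senescent ones. On the log2 scale it changed by −1.20 in WT (SE 0.06, adjusted p = 1.93e-13) and −1.36 in KO cells (SE 0.06, adjusted p = 2.3e-14). Hmgb2, which is most abundant in dividing cells, was at 187, 152 and 194 CPM in WT control, at 24.6, 27.1 and 24.9 CPM in WT senescent, at 186, 169 and 167 CPM in KO control and at 19.3, 16.6 and 16.5 CPM in KO senescent cells. The gap was again much wider than the spread of any group, and KO senescent cells were lowest. Hmgb2 was 6.95-fold lower with senescence in WT cells (−2.80 on the log2 scale, SE 0.09, adjusted p = 1.95e-14) and 9.98-fold lower in KO senescent cells (−3.32, SE 0.09, adjusted p = 3.02e-15). The ratio of Hmgb1 to Hmgb2 per kb was 1.34 ± 0.0983 (SD, n = 3) in WT control, 4.04 ± 0.142 in WT senescent, 1.33 ± 0.012 in KO control and 5.21 ± 0.485 in KO senescent cells.

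**Figure D3:**
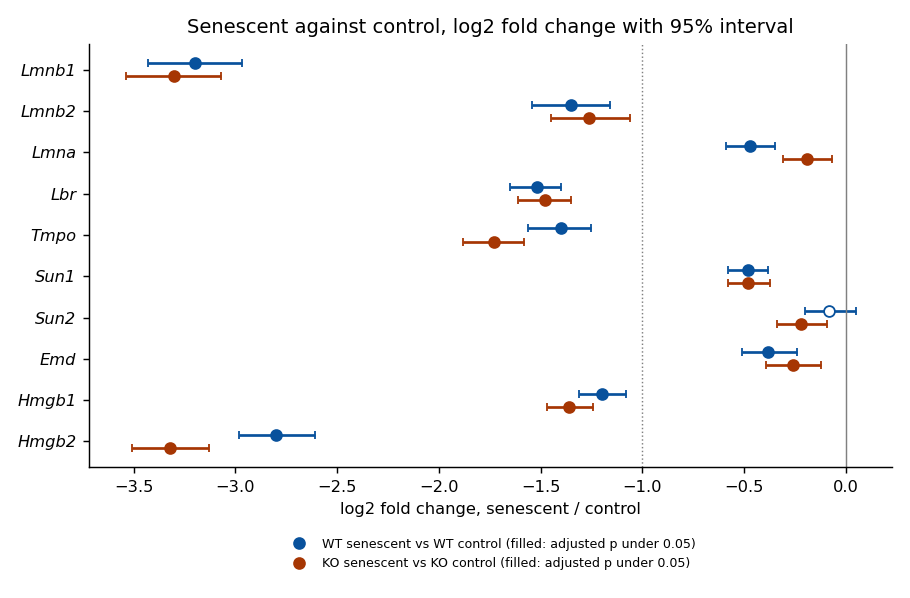
Log2 fold change of senescent against control cells for each of the 10 genes (horizontal axis), with 95% intervals from edgeR's quasi-likelihood fit, for WT and KO cells; filled points have an adjusted p under 0.05, and the dotted line marks a 2-fold fall. Lmnb1 and Hmgb2 lie between −2.80 and −3.32, and the 4 genes right of the dotted line are Lmna, Sun1, Sun2 and Emd.

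Genes of the cell cycle moved with these members. Of 20 such genes, all 20 were lower by more than 2-fold in senescent cells of either genotype. Of all genes tested, 5.9% were so in WT and 7.58% in KO cells. The median change of the 20 genes on the log2 scale was −2.71 (WT) and −3.20 (KO). Their summed level was 2940 to 3750 CPM in control, 505 to 542 CPM in WT senescent and 393 to 424 CPM in KO senescent libraries. Among WT control libraries, replicate 3 was highest and replicate 2 lowest in this sum, as in Lmnb1, Lmnb2, Lmna, Lbr, Tmpo, Sun2, Hmgb1 and Hmgb2. The share of all genes with this order was not counted. WT control replicate 3 also had the lowest TMM factor of the 12 libraries, 0.926. In the other groups a match with the order of the sum held for some members and not for others. In WT senescent replicates 1 to 3 the sum was 505, 542 and 533 CPM. Lmnb2, Tmpo, Hmgb1 and Hmgb2 shared this order. Lmnb1 (11.8, 11.4 and 11.7 CPM), Lmna, Lbr, Sun1 and Sun2 did not, and Emd was level in replicates 1 and 3. In KO control replicates 1 to 3 the sum was 3450, 3150 and 3200 CPM. Lmnb1, Lmnb2, Sun2, Emd and Hmgb1 shared that order, and Lbr, Tmpo, Sun1 and Hmgb2 did not. Lmna was highest in replicate 1 and level in the others. In KO senescent replicates 1 to 3 the sum was 424, 409 and 393 CPM. There Lmnb1 fell too (11.5, 10.6 and 10.3 CPM), as did Lbr, Sun1 and Hmgb2. By contrast, Lmna rose (957, 977 and 1070 CPM), as did Sun2, and Lmnb2, Tmpo, Emd and Hmgb1 did neither. Of the 8 chondrocyte markers tested, 7 fell by more than 2-fold in senescent cells of each genotype, against the same 5.9% and 7.58%. The share of cells in the cycle was not measured here, and the part of these genes, or of the chondrocyte markers given above, in the change of the members was not tested.

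The third question was whether senescence changed the members differently in KO cells. The interaction, the log2 fold change in KO cells less that in WT cells, passed an adjusted p of 0.05 for 3 of 10 members, against 20.9% of all genes tested, and none passed 2-fold, against 3.66%. It was positive for Lmna, at 0.28 (SE 0.08, 95% interval 0.11 to 0.45, adjusted p = 0.0164), so Lmna fell less in KO cells. It was negative for Hmgb2, at −0.52 (SE 0.12, adjusted p = 0.00536), and for Tmpo, at −0.33 (SE 0.10, adjusted p = 0.028), which fell further in KO cells. The value for Hmgb2 passed under every alternative, including the omission of each library in turn. That for Lmna was lost without WT senescent replicate 2 (adjusted p = 0.0628), KO control replicate 2 (0.0592) or KO control replicate 3 (0.0632), and that for Tmpo was lost in 7 of the 12 omissions of a library (adjusted p 0.051 to 0.0838) and with offsets for GC content and length (0.0879).

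For the other 7 members no difference between genotypes was found in the response. The interaction of Lmnb1 was −0.11 with a 95% interval of −0.43 to 0.22, and that of Lbr was 0.04 with an interval of −0.14 to 0.22. For Sun1 it was 0, with an interval of −0.14 to 0.15. Hmgb1, at −0.16 (adjusted p = 0.166), passed only when WT control replicate 3 was left out (−0.22, adjusted p = 0.0463).

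The last question was how the genotypes differed at each state. In control cells none of the 10 members passed (edgeR, adjusted p 0.317 to 0.993), against 13% of all genes that did, and none had groups that did not overlap, against 25.9%. At an unadjusted p, none was under 0.05 either, and DESeq2 also gave none, but without WT control replicate 2 Tmpo passed as lower in KO (−0.21, adjusted p = 0.0246, against −0.12 with all libraries). The log2 differences of KO from WT control cells were −0.12 to 0.08, and the interval for Lmnb1 was −0.20 to 0.19. In senescent cells 5 of 10 members passed, against 23.7% of all genes, and none passed 2-fold, against 3.48%. KO and WT senescent libraries did not overlap for 6 members, against 42% of all genes. Lmna was higher in KO senescent cells, at 1000 ± 58.8 CPM (SD, n = 3) against 779 ± 23.5 CPM in WT (log2 difference 0.36, SE 0.06, adjusted p = 9.3e-05). Hmgb2 was lower, at 17.5 ± 1.55 CPM against 25.5 ± 1.36 CPM (−0.55, SE 0.09, adjusted p = 0.000296), and Tmpo was lower, at 70.3 ± 1.05 CPM against 95.5 ± 5.59 CPM (−0.44, SE 0.07, adjusted p = 0.000175).

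Smaller differences in the same cells were less firm. Hmgb1 was lower by 0.19 in KO senescent cells (SE 0.06, adjusted p = 0.02), which was lost without WT senescent replicate 2 (0.0882) or 3 (0.0645) or KO senescent replicate 3 (0.0605). Sun2 was lower by 0.17 (SE 0.06, adjusted p = 0.0396), which was lost in 6 of the 12 omissions of a library and with the size factors of DESeq2 (0.0757). Emd libraries did not overlap, but its difference of 0.10 did not pass (95% interval −0.04 to 0.23, adjusted p = 0.313). Lmnb1 differed by −0.11 (95% interval −0.37 to 0.15) and Lbr by −0.01 (−0.14 to 0.12).

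**Figure D4:**
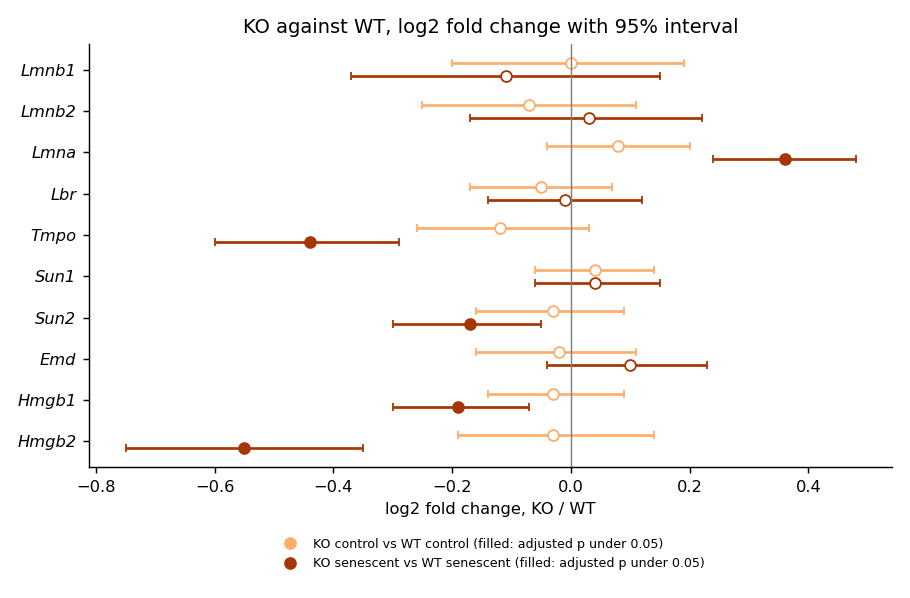
Log2 fold change of KO against WT cells for each of the 10 genes (horizontal axis) with 95% intervals, in control and in senescent cells; filled points have an adjusted p under 0.05. No control value passed, and in senescent cells Lmna, at 0.36, lay above 0 and Tmpo, Sun2, Hmgb1 and Hmgb2, at −0.17 to −0.55, below it.

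The same senescent groups differed in other measured genes. Of the 20 cell cycle genes, 17 were at a lower level in KO senescent cells than in their WT counterparts (11.8% of all genes were lower, and 11 of the 20 without WT senescent replicate 2), with a median log2 difference of −0.50. In control cells 1 of the 20 was lower in KO (4 without WT control replicate 2), where 4.96% of all genes were. The 5 myofibroblast markers were all higher in KO than in WT when senescent (11.9% of all genes were), the direction of Lmna. Their sums were 1980 to 2130 against 1450 to 1550 CPM. In control cells 4 of 5 were higher in KO (8.07% of all genes were), with sums of 2040 to 2360 against 1790 to 2020 CPM. Lmna did not pass in control cells (log2 difference 0.08, edgeR, adjusted p = 0.433). Chondrocyte markers summed to 1950 to 2250 CPM in WT senescent and 612 to 709 CPM in KO senescent libraries, and in control cells to 7360 to 9160 CPM in WT and 4790 to 6650 CPM in KO. The part of these lists in the differences of the members was not tested. Each counts table held 1 genotype, so genotype and any handling of a table cannot be told apart, although a shift common to a table cancels in the interaction. The comparisons share libraries and are not independent of each other.

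Related genes of the nuclear envelope were counted from lists drawn up with earlier results known. Of 31 nuclear pore genes, 27 fell in WT senescent cells (27% of all genes did), 6 of them by more than 2-fold (5.9% of all genes), and 27 fell in KO cells (28.6%), 4 of them by more than 2-fold (7.58%), with medians of −0.64 and −0.53 on the log2 scale. Among those averaging 5 CPM or more, the deepest in WT was Nup107, of the pore scaffold, which went from 94 ± 10.1 to 36.1 ± 1.22 CPM (−1.38, SE 0.07, adjusted p = 4.49e-13), and in KO cells it was Nup85 of the same scaffold complex (−1.33, SE 0.06, adjusted p = 1.66e-13). Of 14 other inner membrane and lamina-associated genes, 3 rose and 7 fell in each genotype (29.2% of all genes rose in WT and 28.5% in KO cells), and without TMM scaling 6 rose and 5 fell in WT and 6 rose and 3 fell in KO cells. The gene of this list that fell furthest was Nrm, which encodes nurim (16.2 ± 1.76 to 7.14 ± 1.19 CPM in WT, −1.17, SE 0.12, adjusted p = 2.82e-08). Lpin1, 1 of the 3 that rose, encodes a phosphatidate phosphatase that acts in lipid synthesis rather than an inner membrane protein. It rose from 16.7 ± 0.657 to 50.4 ± 2.11 CPM in WT (1.59, SE 0.07, adjusted p = 9.76e-14) and from 22.4 ± 1.54 to 45.7 ± 2.61 CPM in KO cells (1.03, SE 0.07, adjusted p = 5.92e-11).

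Of 7 tested genes listed as nesprins and SUN relatives, 1 rose and 2 fell in WT cells (29.2% and 27% of all genes did). In KO cells 1 rose and 3 fell (28.5% and 28.6%). The gene that rose was Tmem38a (log2 fold change 0.95 in WT and 1.2 in KO cells), which is neither a nesprin nor a SUN gene. Syne2, which encodes nesprin-2, was at 114, 98.5 and 109 CPM in WT control, at 36.1, 42.1 and 44.2 CPM in WT senescent, at 89.5, 121 and 115 CPM in KO control and at 27.6, 26.6 and 17.8 CPM in KO senescent cells. Its senescent libraries were far below the control ones (−1.40, SE 0.17, adjusted p = 7.39e-05 in WT and −2.18, SE 0.18, adjusted p = 3.69e-06 in KO cells). The interaction of Syne2 was −0.79 (SE 0.24, adjusted p = 0.0494) and was lost in 11 of 18 alternatives. Of the 5 genes of lamin processing, 2 rose and 3 fell in WT cells and 1 rose and 2 fell in KO cells, none by 2-fold, with log2 fold changes of −0.64 to 0.30 in WT cells, the lowest for Rce1, a protease that trims the lamin tail, and the highest for Fnta, a subunit of farnesyltransferase.

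**Figure D5:**
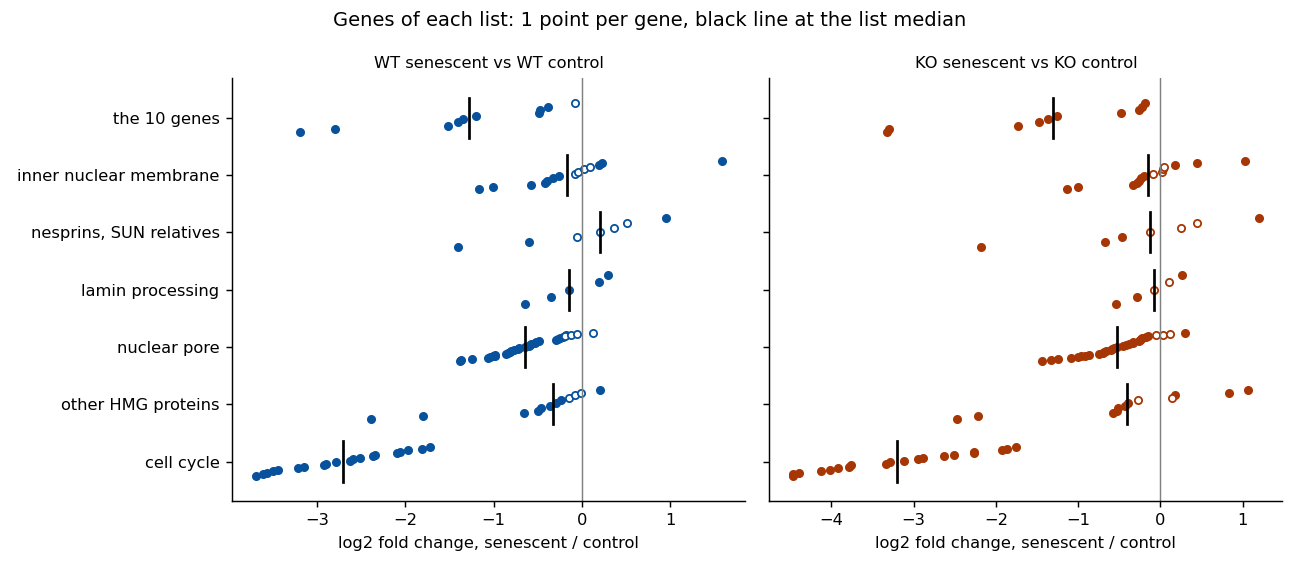
Log2 fold changes of senescent against control cells (horizontal axes) for the genes of each list in WT (left) and KO cells (right); each point is a gene, filled where the adjusted p was under 0.05, and black lines are list medians. The median of the 10 genes was −1.27 in WT and −1.31 in KO cells, and that of the cell cycle genes was −2.71 and −3.20.

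Of 12 other genes of HMG proteins tested, 1 rose and 8 fell in WT cells (29.2% and 27% of all genes did). In KO cells 3 rose and 7 fell (28.5% and 28.6%). Without TMM scaling 5 fell in WT cells. Hmgb3, the third HMGB gene, went from 24.5 ± 3.59 to 4.67 ± 0.661 CPM in WT cells (−2.39, SE 0.17, adjusted p = 3.32e-09) and fell by 2.47 in KO cells (SE 0.17, adjusted p = 2.29e-09), so all 3 HMGB genes fell in both genotypes. Hmgn2, a nucleosome-binding protein, fell further in KO than in WT cells, with an interaction of −0.42 (SE 0.08, adjusted p = 0.00116) that passed under every alternative. Hmga1, which binds AT-rich DNA and is known from the heterochromatin foci of senescent cells, went the other way. It was at 311, 254 and 355 CPM in WT control, at 326, 288 and 296 CPM in WT senescent, at 371, 249 and 263 CPM in KO control and at 603, 536 and 711 CPM in KO senescent cells. The KO senescent libraries were above all 9 others. Sequence that Hmga1 shares with its copies was not examined here. Hmga1 rose 2.09-fold in KO cells (log2 fold change 1.07, SE 0.18, adjusted p = 0.000922), its change in WT cells was −0.01 (adjusted p = 0.959), and the interaction was 1.08 (SE 0.26, adjusted p = 0.019), which was lost without WT senescent replicate 2 or KO control replicate 3 (adjusted p up to 0.0521).

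Across the 12 libraries, the genes whose log2 level ran most like that of Lmnb1 were Rrm1, Fam111a, Topbp1, Mad2l1 and Hjurp (Pearson r 0.998 to 0.999 among 10936 genes compared), and those most like Hmgb1 were Dek, Smc2, Tacc3, Mcm7 and Mcm6 (r = 0.999). These values are descriptions: the libraries fall into a control and a senescent set, and the gap between the sets carries most of r. Lmnb1 had 1363 genes with r over 0.95 and Hmgb1 had 1303, whereas Lmna had 56 and Sun2 none. The genes most like Lmna were Tmsb10, Map7d1, Tpm4, Fkbp1a and Pdlim7 (r 0.981 to 0.993).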

How the data were processed

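Raw counts per gene and library were deposited by the authors as 1 table per genotype. Per the study's methods and the submitters' processing notes, the authors demultiplexed reads with bcl2fastq 2.17, trimmed them with Trimmomatic 0.36, mapped them to GRCm38 with STAR 2.5.2b and counted uniquely mapped reads over exons with featureCounts, so reads with several matches were dropped. Symbols, exons and exon lengths came from a GENCODE annotation of GRCm38, and promoter windows from RefSeq (GRCm38.p6). Counts were filtered with filterByExpr, scaled by TMM and fitted over all 12 libraries with 1 mean per group by edgeR 4.0.16 (robust quasi-likelihood, R 4.3.3), with Benjamini-Hochberg adjustment over 17416 genes. A DEG had an adjusted p under 0.05 and a log2 fold change over 1 in size. The fit was also run on simulated counts with independent libraries, and no result given here rests on that run. The SE is the absolute log2 fold change divided by the square root of F, and intervals are 95%.

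All 10 members are named in each comparison. Of each further list, the rule named the genes with the highest and lowest log2 fold change among those past an adjusted p of 0.05 and averaging 5 CPM or more over the libraries, and some of these are given only in counts. The members and lists were chosen with earlier results of these data known. Alternatives were DESeq2 1.42.0, its size factors, library totals without TMM, no filter, a replicate block, GC and length offsets, the libraries of 1 genotype only, no fold threshold and the omission of each library. Deviations from group means of libraries with the same replicate number correlated at −0.125 to 0.108. No pairing by number showed, but with 3 libraries per group a shared culture or animal is not excluded. Replicates of a group correlated at 0.984 to 0.992 (log2 CPM), with a median coefficient of variation of 8.56%. A count of 3 equalled 0.101 to 0.135 CPM. Floors and spreads cover counting error and these libraries only, since PCR reads without molecular identifiers are not independent molecules. The planned comparison of protein sequences was not run.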

Additional observations from a re-analysis of the deposited data

Results flagged for a closer look

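The response to senescence differed between genotypes for 3 of the 10 genes by the interaction term of edgeR's quasi-likelihood fit. Lmna fell less in KO than in WT cells (interaction 0.28 on the log2 scale, SE 0.08, adjusted p = 0.0164), and all 3 KO senescent libraries were above all 3 WT senescent ones. Tmpo fell further in KO cells (−0.33, SE 0.10, adjusted p = 0.028), and so did Hmgb2 (−0.52, SE 0.12, adjusted p = 0.00536), with all 3 KO senescent libraries below all 3 WT senescent ones for both. Of all genes tested, 20.9% passed the same test, and 42% had KO and WT senescent libraries that did not overlap. The interaction of Lmna was lost in 3 of the alternatives tried and that of Tmpo in 8, whereas that of Hmgb2 passed under every one. Groups of 3 libraries are too small to test for a single library that stands apart.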

How the results depend on the processing

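Of 1115 alternative values for 66 results, 1038 were labelled the same. For log2 fold changes this meant the same direction and side of the threshold. For counts of members it meant a size near the main count, under which 9 members in place of 6 still counted as the same. The number of DEGs among the members was 6, 6, 0, 0 and 0 (WT senescence, KO senescence, interaction, KO against WT control and KO against WT senescent cells) in every omission of a library, and without the fold threshold it was 9, 10, 3, 0 and 5. The number past an adjusted p of 0.05 alone was 9 in WT senescence under every alternative, and in omissions of a library it was 9 to 10 in KO senescence, 1 to 4 in the interaction, 0 to 1 in KO against WT control and 3 to 5 in KO against WT senescent cells. Totals without TMM moved the median of all genes by 0.169 in WT and 0.153 in KO senescence, and left 7 members past in KO senescence. Without correction for exon length, the log2 rise of the ratio of Lmna to the B-type lamins was 1.84 in WT and 2.13 in KO cells, against 2 and 2.3. The same direction was kept by every member in both senescence comparisons, except Sun2 in WT cells (0.09 with library totals).

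Values that changed sign were near 0 and past no threshold. The interaction of Sun1 was −0.01 with library totals or no filter, and −0.02 to 0.03 over omissions of a library, in which that of Lmnb1 ranged from −0.22 to 0 and that of Lbr from 0 to 0.08. In KO against WT control cells, Lmnb1 was at 0 without the filter, at 0.01 with GC and length offsets and at −0.11 to 0.11 over omissions, Lmnb2 at −0.17 to 0.02, Sun2 at −0.08 to 0.03, Emd at −0.08 to 0.06, Hmgb1 at −0.07 to 0.03 and Hmgb2 at −0.13 to 0.04. In KO against WT senescent cells, Lmnb2 was at −0.01 with library totals, at −0.02 with the offsets and at −0.04 to 0.07 over omissions, and Lbr was at 0.01 with DESeq2 or its size factors and at −0.05 to 0.01 over omissions. The cause of these changes was not tested.

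With the replicate block, the counts past an adjusted p of 0.05 were 9, 10, 3, 0 and 5, as without it, and it changed no call of a member. Correlations of deviations between libraries of the same number were −0.125 to 0.108, so no pairing showed, though a shared culture or animal is not excluded. Precision is limited by 3 libraries per group, and KO and WT cells came in separate tables.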
